A study of Mus musculus with 12 samples.

Results

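The smooth muscle contractile apparatus of the mouse urinary bladder was followed over 1 circadian day in 33 genes: 13 of the thin filament, 4 of myosin and its light chains, 2 of the intermediate filaments, 5 of dense bodies and actin crosslinks, 7 of the membrane plaques and 2 transcriptional regulators. They were taken by gene name from the scanner files, where 32 of the 33 names occur on 65 probes. The remaining one, Smtnl2, is called D130058I21Rik there and was found through its RefSeq accession. Each gene is represented by its probe of highest mean signal, out of 41174 probes and 18398 genes tested in all. RNA came from whole bladders of female C57BL/6 mice, 10 weeks of age, all of them wild type. After 2 weeks with equal phases of light and dark (12 h each) they were moved to constant darkness, which removes light as a time cue. The groups were circadian times (CT) 0, 4, 8, 12, 16 and 20 h with 2 arrays each; CT0 to CT12 is the subjective day, when mice rest. The series' design text lists the times without CT16, which 2 arrays carry in their labels. Whether each array stands for 1 mouse is not in the labels. P-values therefore measure the spread between arrays, which may be technical.

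Smooth muscle shortens when myosin heads pull on actin filaments. Calcium and calmodulin switch on myosin light chain kinase, which phosphorylates the regulatory light chain, and a phosphatase reverses this. The filaments are anchored in dense bodies inside the cell and in plaques at its membrane, which pass force to the matrix. The detrusor, the muscle coat of the bladder, relaxes while urine is stored and contracts to void it. Many genes of this apparatus are controlled by serum response factor (SRF) with its coactivator myocardin, which act through the CArG box, a short DNA element with a core of A and T bases.

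The boxes found near the start sites of these genes are printed first because they are the one regulatory element that the group is known for. RefSeq promoter windows of 300 bases (250 upstream and 50 downstream of a start site, GRCm38.p6) were at hand for 29 of the 33 genes, in 36 windows; Actg2, Tagln, Myh11 and Myocd are named only. A perfect CArG box, which reads as the same motif on both strands, was present in 7 of the 29 genes (24.1%), against 1.81% of all 27025 genes in the table. By window the share was 22.2%, against 1.63% of 32851 windows. Windows with a copy that had 1 mismatch made up 22.2% of the members' windows and 19.9% of all. The motif TATAAA, searched on both strands, was in 16.7% of the members' windows and in 13.6% of all. The stretches around the perfect boxes follow 5′ to 3′ on the gene's strand, with the box in capitals; all lie upstream of the start site. They come from chr2:156775283-156775332 for Myl9, chr10:79988524-79988573 for Cnn2, chr10:128493030-128493079 for Myl6 (minus strand) and chr14:20929151-20929200 for Vcl. Those of the other genes are chr14:34588687-34588736 for Ldb3 (minus strand), chr17:46556195-46556264 for Srf (minus strand) and chrX:82948752-82948801 for Dmd.
Myl9: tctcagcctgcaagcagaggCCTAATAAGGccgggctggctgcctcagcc
Cnn2: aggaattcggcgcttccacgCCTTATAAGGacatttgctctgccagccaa
Myl6: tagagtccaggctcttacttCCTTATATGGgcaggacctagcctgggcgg
Vcl: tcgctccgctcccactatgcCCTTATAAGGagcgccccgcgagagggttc
Ldb3: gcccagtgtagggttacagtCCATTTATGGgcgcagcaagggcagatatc
Srf: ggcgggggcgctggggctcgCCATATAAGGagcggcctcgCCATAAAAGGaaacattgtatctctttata
Dmd: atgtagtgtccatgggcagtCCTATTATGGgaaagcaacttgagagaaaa

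Cnn2 and Vcl carried the same letters in the box, and the Srf window held 2 boxes, starting 82 and 62 bases upstream. The boxes of Myl6 and Cnn2 began 50 and 56 bases upstream of the start site. Those of Dmd, Myl9 and Vcl began 98, 161 and 227 bases upstream. The Ldb3 box lay 35 bases upstream of one annotated start and 109 bases upstream of another. A match says only that these letters are present in the window. The 7 genes differed in their behaviour over the day, with fitted waves between 1.04-fold for Srf and Vcl and 1.91-fold for Ldb3 and a median of 1.10-fold.

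**Figure D1:**
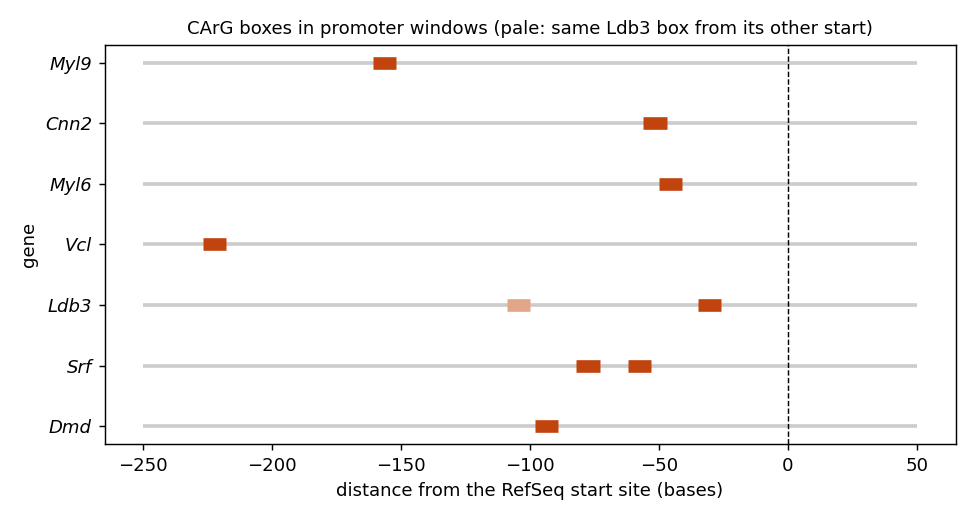
Position of perfect CArG boxes in the promoter windows of 7 genes. The horizontal axis is the distance in bases from the RefSeq start site (dashed line), each grey line is a window from 250 bases upstream to 50 bases downstream, and each coloured block is a box. The boxes begin between 227 bases (Vcl) and 35 bases (Ldb3) upstream.

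Levels are log2 signals minus the 75th percentile of their array, so that 0 marks a probe at that percentile, and a level says nothing of one gene against another. All 33 genes were well above background on all 12 arrays, 31 had a mean level above the 75th percentile, and no spot was saturated. The 75th percentile lay between 844 and 984 intensity units per array. One array stood apart in quality: CT0 replicate 2 had 228 outlier spots, against 55 to 83 on each of the others. The bladder wall was represented as labelled, with all 13 urothelial markers and all 8 fibroblast markers well above background on all 12 arrays. In such bulk RNA, fewer muscle cells and less RNA per muscle cell cannot be told apart. CT0 and CT4 shared slide 1, CT8 and CT12 slide 2, and CT16 and CT20 slide 3, so slide and time are partly confounded.

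Most of the contractile apparatus had no detectable 24 h wave. Dag1, encoding dystroglycan, was the only one of the 33 genes past the threshold in the fit of a 24 h cosine wave (limma moderated F-test, Benjamini-Hochberg adjusted p under 0.05 over all genes tested), where 0.636% of all genes passed. At an unadjusted p under 0.05 there were 5 of 33 (15.2%), against 15.6% of all genes, a share near the background. The test for any difference between the 6 times called 0 of 33, against 0.0978% of all genes. At an unadjusted p under 0.05 it gave 5 (15.2%), against 19.1%. The fold of a fitted wave, its peak over its trough, had a median of 1.13 over the members. It was 1.18 over all genes and 1.14 over the 9928 genes at or above the lowest member's mean level.

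Waves beyond a given size can be bounded from the same fit. The highest fold inside the joint 95% region of the cosine and sine terms ranged from 1.21 for Acta2 to 3.28 for Cald1, with a median of 1.61. It was under 1.5 for 14 genes and under 2 for 27. The fitted peak fell in CT12 to CT24 for 26 of the 33 genes, against 54.2% of all genes, but its standard error (SE) exceeded 3 h for 14 of the 26, so many of these phases are loosely placed. With slide as a fixed block 0 of 33 genes passed, against 0.038% of all genes, and as a random block 0 of 33, against 0.179%. At an unadjusted p under 0.05 there were 4 of 33 in each, against 13.9% and 9.57% of all genes. The 4 with the fixed block were Dag1, Vim, Cav1 and Myh11. The bounds above come from the fit without a slide term, and 8 genes had a fitted wave above their own bound once slide was a fixed block. These were Vim (2.21-fold), Actn1 (2.22-fold), Cav1 (1.98-fold), Actg2 (1.96-fold), Dag1 (1.96-fold), Itga8 (1.71-fold), Myh11 (1.58-fold) and Tpm1 (1.45-fold). Their adjusted p in that fit ran from 0.181 (Dag1) to 0.548 (Tpm1). The wave was smaller with the block for Synpo2 (1.25-fold), Cald1 (1.19-fold), Smtnl2 (1.47-fold) and, slightly, Acta2 (1.029-fold against 1.034-fold). With slide as a fixed block, which leaves only the differences within slides, the median fitted amplitude of the members was 0.218, against 0.0896 (log2) without it. A fitted amplitude cannot fall below 0 and can grow as a fit loses precision, so these larger waves are not evidence of larger rhythms. Neither this amplitude nor the count of genes above their bound was taken over all genes.

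**Figure D2:**
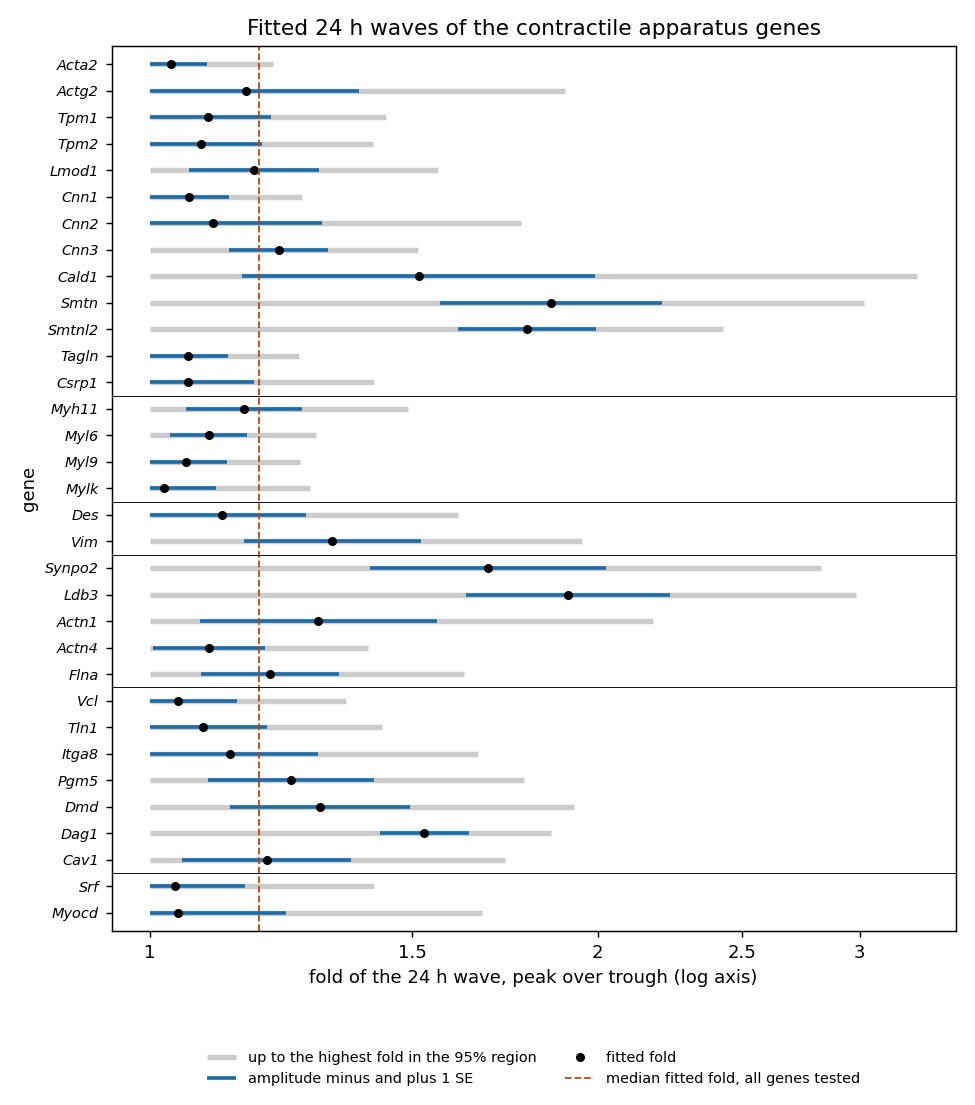
Fitted 24 h waves of the 33 genes, ordered by role as in the text. The horizontal log axis is the fold of peak over trough; black points are fitted folds, blue bars the amplitude minus and plus 1 SE (cut at 1), grey bars reach the highest fold in the 95% region, and the dashed line is the median of all genes tested, 1.18. The bright actin, calponin, transgelin and myosin light chain genes lie at 1.03 to 1.10, and Ldb3, Smtn, Smtnl2, Synpo2, Dag1 and Cald1 at 1.52 to 1.91.

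The core of the thin filament had small fitted waves. Acta2, which encodes smooth muscle alpha actin, had levels of 8.48 and 8.67 at CT0, 8.55 and 8.54 at CT4, 8.65 and 8.44 at CT8, 8.62 and 8.49 at CT12, 8.53 and 8.65 at CT16, and 8.63 and 8.54 at CT20. The arrays of each time overlapped those of the others, and the fitted wave was 1.03-fold (adjusted p = 0.922). Cnn1, the calponin gene of differentiated smooth muscle, and Tagln, which encodes the actin-binding protein SM22 alpha, both had 1.06-fold waves (highest fold in the 95% region 1.27 and 1.26). Tropomyosins lie along the actin filament and gate access for myosin; Tpm1 had a 1.09-fold and Tpm2 a 1.08-fold wave. Lmod1, encoding the actin nucleator leiomodin, ranged from 5.34 at CT8 to 5.92 at CT16 (1.18-fold, adjusted p = 0.607).

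Actg2, the gamma actin gene of visceral muscle, varied more between arrays of one time than over the day. Its levels were 6.80 and 7.75 at CT0, 6.96 and 6.52 at CT4, 7.02 and 6.64 at CT8, 7.17 and 6.88 at CT12, 6.71 and 6.81 at CT16, and 6.97 and 6.93 at CT20. CT0 replicate 2 was the highest array by a wide margin, while the other CT0 array lay among the rest. The pooled SD between the 2 arrays of a time was 0.332, the fitted wave was 1.16-fold, and without CT0 replicate 2 it was 1.10-fold. With slide as a fixed block it was 1.96-fold (adjusted p = 0.527). Csrp1, a LIM-domain protein gene of muscle, had a 1.06-fold wave. The calponin genes Cnn2 and Cnn3, which are expressed beyond muscle, had 1.10-fold and 1.22-fold waves (adjusted p = 0.926 and 0.359).

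Among regulators of the thin filament, caldesmon and the smoothelins varied most, in different ways. Cald1, whose product holds back actin and myosin interaction, had the largest spread between arrays of a time of all 33 genes (pooled SD 0.506). Its levels were 3.28 and 4.40 at CT0, 3.54 and 3.17 at CT4, 3.99 and 2.94 at CT8, 3.39 and 2.87 at CT12, 3.36 and 3.07 at CT16, and 2.43 and 2.90 at CT20. Arrays of CT0 and CT8 stood more than 1 log2 unit apart, and the 1.52-fold wave had an adjusted p of 0.635. With slide as a fixed block it was 1.19-fold (adjusted p = 0.981). Smtn, encoding the contractile smooth muscle protein smoothelin, had levels of 2.97 and 3.92 at CT0, 2.89 and 2.91 at CT4, 2.52 and 2.35 at CT8, 2.88 and 2.28 at CT12, 2.46 and 2.51 at CT16, and 3.12 and 2.82 at CT20. Its 5 lowest arrays lay at CT8 to CT16 and its highest was again CT0 replicate 2. The fitted wave was 1.86-fold with a peak at CT23.7 ± 1.06 h (SE, 12 arrays; unadjusted p = 0.0135, adjusted p = 0.199) and 1.52-fold without CT0 replicate 2.

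Smtnl2, a relative of smoothelin, lay closest to the threshold after Dag1. Its levels were -0.29 and -0.48 at CT0, -0.02 and -0.18 at CT4, 0.22 and 0.20 at CT8, 0.64 and 0.49 at CT12, -0.01 and -0.38 at CT16, and -0.18 and -0.41 at CT20. Both CT12 arrays were above every other array, both CT8 arrays came next, and the arrays of the remaining times lay below these 4. The fitted wave was 1.79-fold (range 1.61 to 2.00 for 1 SE of the amplitude) and peaked at CT10.4 ± 0.70 h. It missed the threshold (adjusted p = 0.0693; any difference between times, adjusted p = 0.130). Of 11 other settings, 3 took it past (normexp background correction, the authors' value table and an intensity trend in the variance prior), as did 1 of the 12 fits with an array removed. With slide as a fixed block the wave was 1.47-fold (adjusted p = 0.563). Its probe lies at chr11:72471979-72472038 on mm7, the build of the array files.

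Myosin genes had small fitted waves as well. Myh11, the smooth muscle heavy chain gene, had levels of 7.37 and 7.39 at CT0, 6.98 and 7.18 at CT4, 7.23 and 7.10 at CT8, 7.59 and 7.21 at CT12, 7.38 and 7.37 at CT16, and 7.19 and 7.18 at CT20. The lowest array was at CT4 and the highest at CT12, and the wave was 1.16-fold (highest fold in the 95% region 1.49, adjusted p = 0.599). With slide as a fixed block it was 1.58-fold (unadjusted p = 0.0457, adjusted p = 0.355). Myl9, encoding the regulatory light chain that carries the activating phosphate, had a 1.06-fold wave. Myl6, the essential light chain gene, had a 1.10-fold wave, and Mylk, the light chain kinase gene, a 1.02-fold one, the smallest of the 33. The highest fold in the 95% region was 1.26 for Myl9, 1.29 for Myl6 and 1.28 for Mylk.

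Of the intermediate filament genes, Des (desmin, the muscle form) varied mainly between arrays of a time. It had levels of 6.50 and 6.98 at CT0, 6.48 and 6.14 at CT4, 6.61 and 6.18 at CT8, 6.75 and 6.36 at CT12, 6.57 and 6.43 at CT16, and 6.47 and 6.44 at CT20. Replicates at CT0, CT8 and CT12 lay 0.39 to 0.47 apart, and the wave was 1.12-fold (adjusted p = 0.848). Vim, encoding vimentin, which fibroblasts and other mesenchymal cells also make, had levels of 5.74 and 5.79 at CT0, 5.50 and 5.30 at CT4, 5.46 and 5.61 at CT8, 6.17 and 6.14 at CT12, 5.87 and 5.51 at CT16, and 5.96 and 5.54 at CT20. Both CT12 arrays stood above the other arrays. Its wave was 1.33-fold with an adjusted p of 0.478, and 2.21-fold with slide as a fixed block (unadjusted p = 0.00897, adjusted p = 0.243); the test for any difference gave an unadjusted p of 0.0287. Fibroblast markers were high on the same arrays, their median standing 0.26 and 0.15 above its mean at CT12; their part in the Vim values was not tested.

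**Figure D3:**
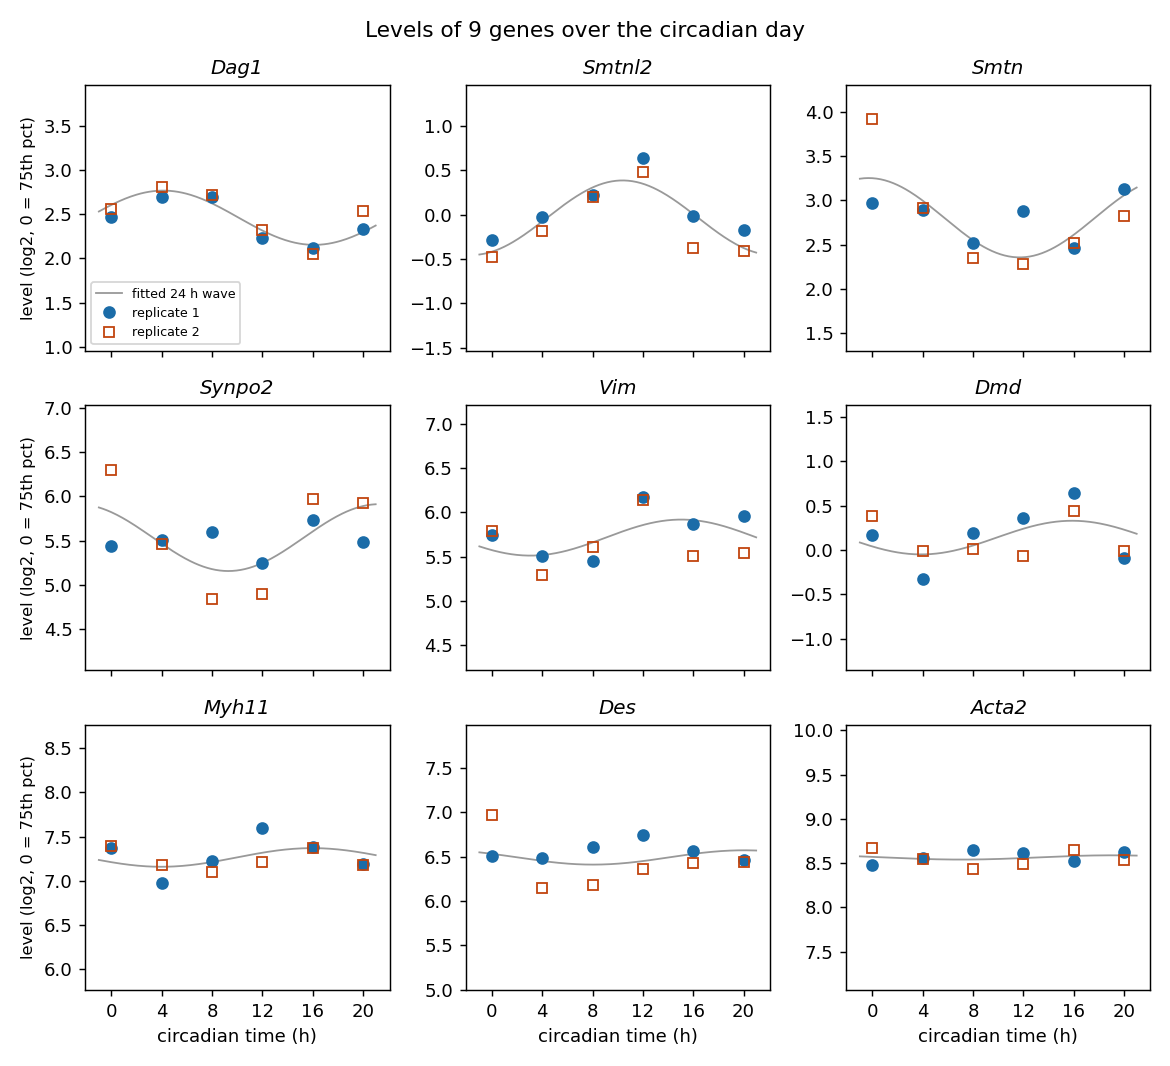
Level of 9 genes on each array against circadian time (h). The vertical axis is the log2 level with 0 at the array's 75th percentile and spans the same range in every panel; filled circles are replicate 1, open squares replicate 2, and grey lines the fitted 24 h waves. Dag1 runs between 2.05 and 2.81 with close replicates, Smtnl2 is highest at CT12, CT0 replicate 2 stands high for Smtn, Synpo2 and Des, and Acta2 stays between 8.44 and 8.67.

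Dense body and crosslinker genes held the largest fitted wave of the 33, without a call. Ldb3, known as a Z-disc protein gene of striated muscle, had levels of -0.85 and -0.62 at CT0, -0.40 and -0.59 at CT4, 0.10 and -0.82 at CT8, -0.75 and -1.18 at CT12, -0.87 and -1.34 at CT16, and -1.36 and -1.38 at CT20. CT8 replicate 1 was the highest and both CT20 arrays were the lowest, and the 2 arrays of CT8, CT12 and CT16 lay far apart. The wave was 1.91-fold at CT5.9 ± 0.93 h (unadjusted p = 0.00623, adjusted p = 0.150), while the 2 other Ldb3 probes, which match another transcript, gave 1.17-fold and 1.19-fold waves at CT8.0 and CT8.8. On CT8 replicate 1 the median of 11 skeletal muscle markers stood 0.20 below its mean, and that of 8 slow and cardiac muscle markers 0.09 below. On the CT20 arrays, the lowest for Ldb3, both medians were low too (-0.29 and -0.33 for skeletal, -0.52 and -0.31 for slow and cardiac markers), and on CT4 replicate 1, where Ldb3 was high, they were 0.22 and 0.50. The part of striated muscle in the Ldb3 values was not tested.

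Synpo2, encoding an actin-bundling protein of dense bodies, had levels of 5.44 and 6.30 at CT0, 5.51 and 5.46 at CT4, 5.60 and 4.84 at CT8, 5.25 and 4.90 at CT12, 5.73 and 5.97 at CT16, and 5.49 and 5.93 at CT20. The low arrays were CT8 replicate 2 and both of CT12. The wave was 1.69-fold at CT21.3 ± 1.33 h (unadjusted p = 0.0462, adjusted p = 0.316). On the same arrays its 2 other probes gave 1.83-fold and 1.78-fold waves at CT22.2 and CT21.7. The wave of the probe used was 1.53-fold without CT0 replicate 2 and 1.25-fold with slide as a fixed block (adjusted p = 0.943). Actn1, an alpha-actinin gene, reached 2.14 on CT0 replicate 2 and lay between 0.88 and 1.36 on the other 11 arrays. Its 1.30-fold wave (adjusted p = 0.667) was 1.06-fold without that array and 2.22-fold with slide as a fixed block (adjusted p = 0.435). Actn4, the other alpha-actinin gene, had a 1.10-fold wave, and Flna, encoding the crosslinker filamin A, a 1.20-fold one.

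The membrane plaques held the one gene with a called wave. Dag1 encodes both subunits of dystroglycan, the receptor that ties dystrophin and the actin cytoskeleton to laminin outside the cell. Its levels were 2.47 and 2.56 at CT0, 2.69 and 2.81 at CT4, 2.69 and 2.71 at CT8, 2.23 and 2.32 at CT12, 2.12 and 2.05 at CT16, and 2.33 and 2.54 at CT20. The 4 arrays of CT4 and CT8 were the highest and those of CT16 the lowest, with no overlap between these times. The wave was 1.53-fold (range 1.43 to 1.64 for 1 SE of the amplitude) and peaked at CT4.1 ± 0.63 h (adjusted p = 0.0479). Its spread between arrays of a time, a pooled SD of 0.0811, was the smallest of the 33 genes.

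The Dag1 call lay at the threshold. A second probe, other settings and the steps within slides gave a similar course, but all of them rest on the same arrays. They are not independent samples, so they cannot show whether the wave would recur in other mice. A second Dag1 probe gave a 1.43-fold wave at CT3.9 (unadjusted p = 0.00373 in a fit over all probes). Across 23 other settings the fold was 1.47 to 1.96 and the peak moved by at most 0.61 h, while the adjusted p ranged from 0.0166 to 0.181 and passed in 6. Within slides, which carry no slide effect, CT4 was 0.24 above CT0, CT12 0.43 below CT8 and CT20 0.35 above CT16 (log2; unadjusted p = 0.0356, 0.00212 and 0.00663, none past the adjusted threshold). With slide as a fixed block the wave was 1.96-fold (adjusted p = 0.181). The test for any difference gave an adjusted p of 0.113. The probe lies at chr9:107935749-107935808 and the second probe at chr9:107936192-107936251 on mm7; no annotation of that build was used to place them in an exon or UTR.

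Dmd, encoding dystrophin, the intracellular partner of dystroglycan, did not share this course on the probe used. Its levels were 0.17 and 0.38 at CT0, -0.33 and -0.02 at CT4, 0.19 and 0.01 at CT8, 0.36 and -0.07 at CT12, 0.64 and 0.44 at CT16, and -0.09 and -0.01 at CT20. Both CT16 arrays were above the other arrays and CT4 replicate 1 was the lowest, where Dag1 was high. The fitted wave was 1.30-fold at CT15.9 ± 2.02 h (adjusted p = 0.521). Over the 12 arrays the levels of Dmd and Dag1 had r = -0.61, given as a description. With each time's mean removed it was 0.24. A further Dmd probe, at a mean level of -5.56, gave 1.23-fold at CT8.1 (unadjusted p = 0.878 in a fit over all probes). Within slides Dmd was 0.45 lower at CT4 than at CT0 and 0.59 lower at CT20 than at CT16 (unadjusted p = 0.0329 and 0.00963, neither past the adjusted threshold).

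The other plaque genes had no called wave. Itga8, encoding the integrin alpha 8 subunit of smooth muscle, ranged from 0.61 at CT20 to 1.44 at CT0 and was 0.54 lower at CT20 than at CT16 (unadjusted p = 0.00606, adjusted p = 0.202). Vcl and Tln1 encode vinculin and talin, which link integrins to actin, and had 1.04-fold and 1.09-fold waves. Pgm5, encoding the plaque protein aciculin, had a 1.24-fold wave, and Cav1, encoding caveolin 1 of the membrane pockets between plaques, a 1.20-fold one, which was 1.98-fold with slide as a fixed block (unadjusted p = 0.0305, adjusted p = 0.321). A further Cav1 probe gave 1.67-fold at CT18.2 (unadjusted p = 0.0921). The regulators themselves had small fitted waves. Srf ranged from 3.80 to 4.40 (1.04-fold, highest fold in the 95% region 1.41, adjusted p = 0.972). Myocd, the myocardin gene, ranged from 0.98 to 1.86 (1.05-fold, highest fold in the 95% region 1.67, adjusted p = 0.984). The further Myocd probe gave a 1.33-fold wave at CT3.3 (unadjusted p = 0.114).

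Further probes gave a measure of how far a single probe can be relied on. Of the 33 genes 19 had more than 1 probe, and 27 further probes were well above background on all arrays; 22 of these peaked within 3 h of the probe used. The SD over 12 arrays was larger on 17 of the 27 than on the probe used. For Acta2 it was 0.0761 on the probe used and 0.156, 0.251, 0.307 and 0.609 on the others. The mean levels of these others were 6.84, 5.34, 2.48 and -5.13, against 8.56 on the probe used. CT0 replicate 2 exceeded replicate 1 by 0.19 on that Acta2 probe, and by 0.43, 0.70 and 0.60 on the first 3 of the others; on the fourth, it was 0.59 lower. Whether brightness limits the range of the probe used was not tested, and the folds of the 6 genes with a mean level above 8 (1.03 to 1.10) carry this limit.

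The genes moved together between the 2 arrays of a time. At CT0, replicate 2 was higher than replicate 1 in all but 2 of the 33 genes, Smtnl2 and Itga8. At CT12, replicate 1 was higher in 32 of 33, all but Dag1, and at CT8 in 29 of 33, all but Vim, Actn4, Vcl and Dag1. Replicate 1 was the higher array for 46.8% of all genes at CT0, 53.9% at CT12 and 48.0% at CT8. At CT4, CT16 and CT20 the members divided 20, 12 and 19 of 33 in favour of replicate 1. The median member differed 1.22-fold between the arrays of CT0, 1.23-fold at CT12 and 1.16-fold at CT8, against 1.08-fold to 1.12-fold at the other times.

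**Figure D4:**
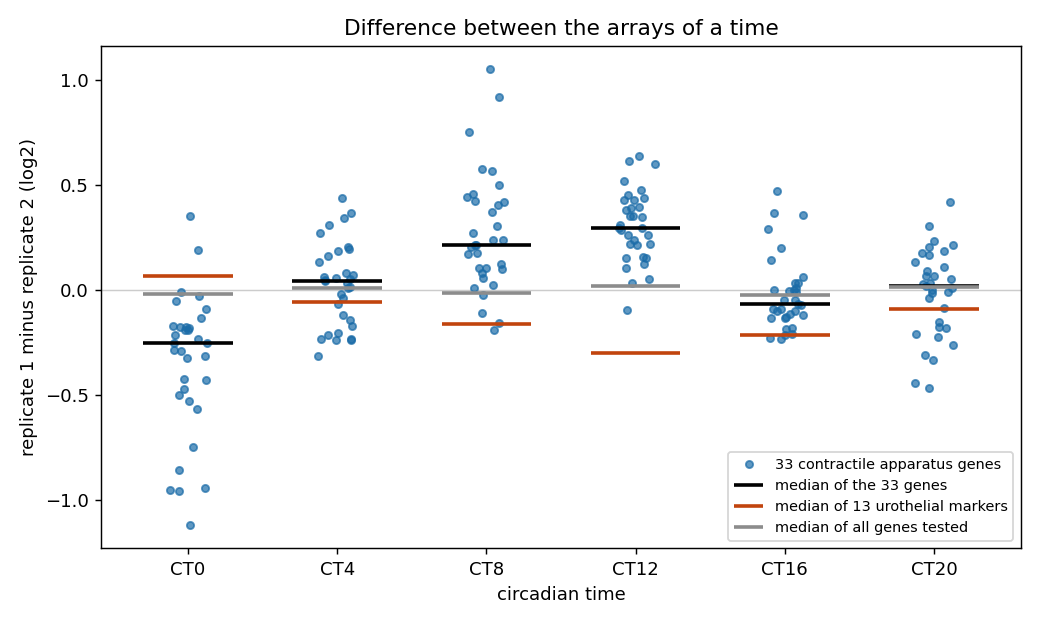
Log2 difference of replicate 1 minus replicate 2 at each circadian time. Blue points are the 33 genes, black bars their median, red bars the median of 13 urothelial markers and grey bars the median of all genes tested. The members lie below 0 at CT0 and above 0 at CT8 and CT12, where the urothelial median is on the other side of 0, and all genes stay near 0.

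The spread between arrays of a time was correspondingly large. Its pooled SD had a median of 0.184 over the members, against 0.155 over all genes and 0.111 over the 9928 genes at or above the lowest member's level. CT0 replicate 2 was the highest of the 12 arrays for 17 of the 33 genes and for 12.3% of all genes. After removal of each time's mean, pairs of members correlated with a median r of 0.63 (528 pairs, 83.5% above 0), against 0.00 over all 169234003 pairs of genes tested. The 2 arrays of a time then deviate equally in opposite directions, so each r rests on 1 difference per time. The closest pairs were Acta2 with Myl6 and with Tagln (r = 0.99 and 0.98 of the deviations). These are descriptions; all points share the same 12 arrays and their scaling.

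Markers of some other cells also differed between the arrays of a time, in a direction relative to the members that varied with the time. At CT12, urothelial markers were lower on replicate 1 in 11 of 13, by a median of 0.30, where the contractile genes were higher by a median of 0.30. At CT8 the medians were -0.16 for urothelium and 0.21 for the contractile genes, and at CT0 they were 0.07 and -0.25, where 7 of 13 urothelial markers were higher on replicate 1. At CT16 both were lower on replicate 1, urothelium by 0.21 in all 13 markers and the contractile genes by 0.07. At CT20, 11 of 13 urothelial markers were lower (median -0.09), with the contractile genes at 0.02. The deviations of members and urothelial markers had a median r of -0.44, those of members with adipocyte markers -0.56, with nerve markers -0.50, and with endothelial and leukocyte markers -0.44 and -0.43. With pericyte and fibroblast markers, the median r was 0.20 and 0.18. It was -0.20 with skeletal muscle, -0.07 with slow and cardiac muscle and -0.06 with hepatocyte markers. These r values too rest on 1 difference per time. All 13 urothelial, 8 fibroblast, 6 endothelial and 6 pericyte markers were measured, as were 5 of 6 leukocyte, 5 of 7 nerve, and all 5 adipocyte and 5 hepatocyte markers. Adipocyte and hepatocyte markers varied most between arrays, their medians running from -2.45 to 1.62 and from -3.42 to 3.42 around their means. The part of cell composition in the contractile genes' values was not tested.

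**Figure D5:**
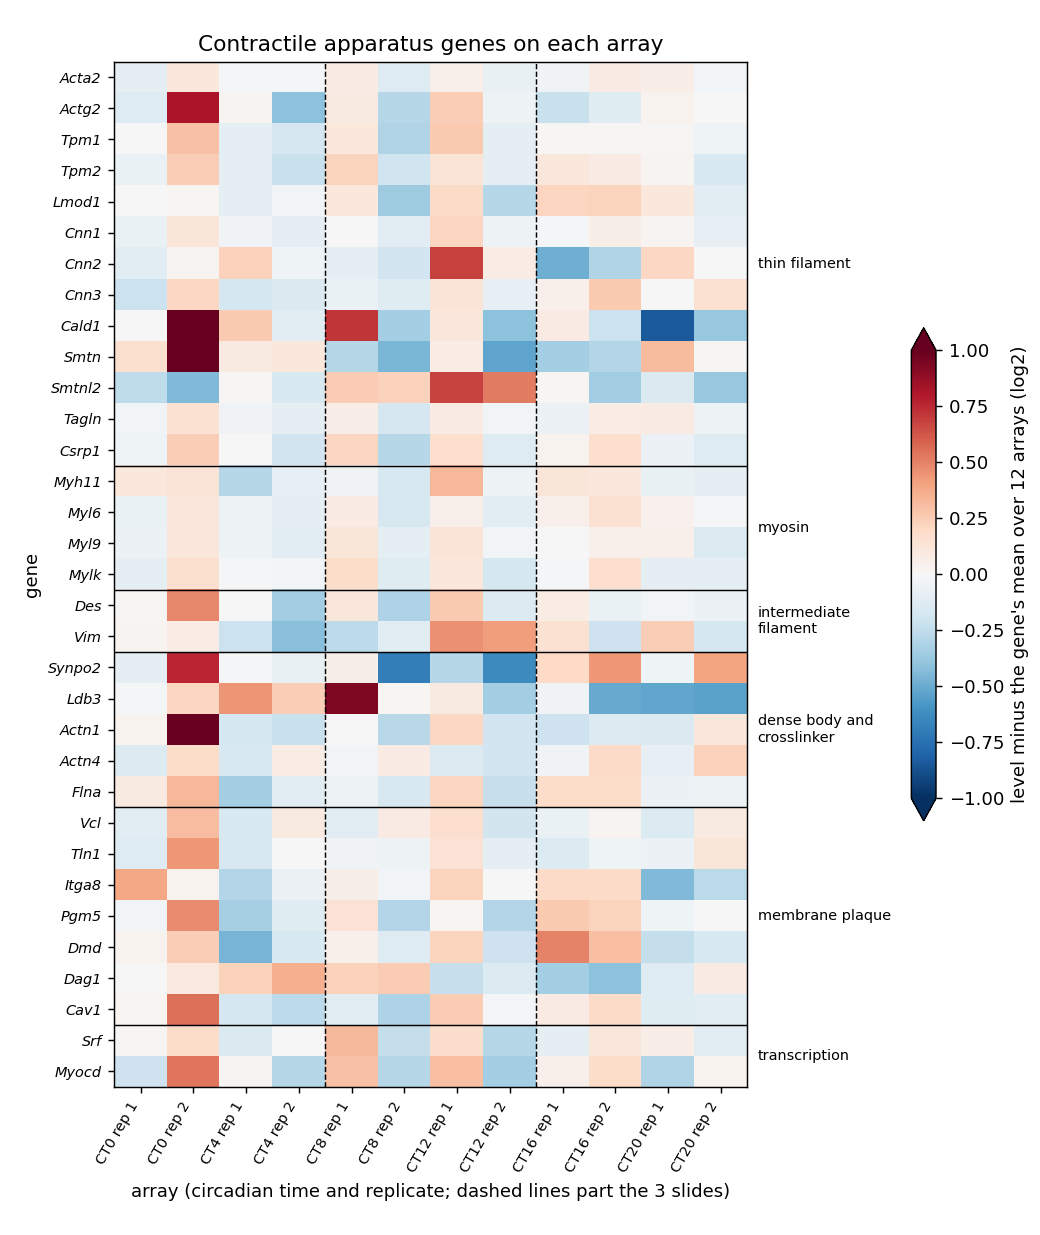
Level of each of the 33 genes (rows, by role) on each of the 12 arrays (columns), as the log2 difference from the gene's own mean, red above and blue below; the scale is cut at 1 on either side and dashed lines part the slides. Columns rather than times stand out: CT0 replicate 2 and CT12 replicate 1 are red for most genes and CT8 replicate 2 and CT12 replicate 2 blue, while the rows of Dag1 and Smtnl2 follow their own course.

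Lower levels at CT4 than at CT0 were the most widespread difference within a slide with all arrays, and their number and size depended on single arrays. At CT4, 29 of 33 genes had a lower mean than at CT0, with a median difference of -0.23 (log2), against -0.01 over all genes. No member passed the adjusted threshold, where 0.00544% of all genes did. At an unadjusted p under 0.05, 6 members were lower (Actn1, Cav1, Flna, Itga8, Dmd and Myh11), against 5.15% of all genes, and 1 was higher (Dag1), against 4.03%. Without CT0 replicate 2, 19 of 33 genes were lower at CT4, and 29 were without CT0 replicate 1 or without CT4 replicate 1. The median difference was -0.04 without CT0 replicate 2, -0.34 without CT0 replicate 1 and -0.20 without CT4 replicate 1. The 6 named genes kept different parts of their difference without CT0 replicate 2: Myh11 -0.29 of -0.30, Flna -0.31 of -0.44, Dmd -0.34 of -0.45, Cav1 -0.24 of -0.50 and Actn1 -0.23 of -0.71 (log2). Itga8, lower on that array than on CT0 replicate 1, had -0.57 without it and -0.39 with it.

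The other steps within a slide were smaller in the median member, though not in every gene. At CT12, 3 members were higher than at CT8 (Vim, Cnn2 and Smtnl2) against 5.95% of all genes and 1 was lower (Dag1) against 7.07%, at an unadjusted p under 0.05. The median member difference was 0.07, and it was -0.06 without CT12 replicate 1 and -0.04 without CT8 replicate 2. At CT20, 25 of 33 genes had a lower mean than at CT16, with a median difference of -0.09; 2 were higher (Dag1 and Cnn2) against 7.29% and 2 lower (Itga8 and Dmd) against 6.98% at an unadjusted p under 0.05. No member passed the adjusted threshold in either step, where 0% and 0.00544% of all genes did.

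Genes around the contractile apparatus gave no call either. The lists here and in the next paragraph were chosen with earlier results of these data known. Their unadjusted shares are therefore descriptions and test nothing about the lists. Of 16 genes that control light chain phosphorylation, 0 passed for a 24 h wave over all genes, and the median fold was 1.20. At an unadjusted p under 0.05 there were 3 (18.8%), against 15.6% of all genes. The largest waves were those of Ppp1r12b, a myosin phosphatase subunit gene (1.39-fold at CT19.3, adjusted p = 0.261), and Prkg1, the cGMP-dependent kinase gene that relaxes smooth muscle (1.37-fold at CT16.9, adjusted p = 0.290). Prkg1 was dim, at a mean level of -2.62. Of 14 measured coactivators and regulators of SRF, 0 passed (median 1.25-fold). Unadjusted, 6 did so (42.9%), against 15.6% of all genes. The peaks of these 6 were spread from CT3.9 (Elk4) to CT23.8 (Mrtfb). Elk4 and Mrtfb had low mean levels of -5.14 and -4.09. Mef2c, a transcription factor gene of muscle, had a 1.65-fold wave at CT6.9 (adjusted p = 0.138), and Klf4, encoding a repressor of the contractile programme, a 1.57-fold one at CT10.5 (adjusted p = 0.257). Klf4 also came near the threshold in the test for any difference (adjusted p = 0.0779).

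In the remaining lists the count was 0 as well. Of 10 measured non-muscle and striated counterparts 3 passed unadjusted (30.0%, against 15.6% of all genes). The largest waves were those of Actn2, the striated muscle alpha-actinin gene (2.80-fold at CT3.8, adjusted p = 0.267), and Lmod3 (1.43-fold at CT5.2, adjusted p = 0.632). Both were dim, with mean levels of -4.44 for Actn2 and -3.94 for Lmod3, against -0.84 for the lowest member. Of 20 plaque and dystrophin complex partners 2 passed unadjusted (10.0%, against the same share). Itga5, an integrin gene for fibronectin, had a 2.07-fold wave at CT23.2 (adjusted p = 0.374), and Sgca, the alpha-sarcoglycan gene, a 1.49-fold one at CT10.9 (adjusted p = 0.234). Of 19 genes of caveolae and Z-line type scaffolds 5 passed unadjusted (26.3%, against the same share). The small heat shock protein gene Hspb7 had a 1.88-fold wave at CT9.1 (adjusted p = 0.147).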

How the data were processed

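Total RNA of whole bladder was hybridised to Agilent 1-colour (Cy3) arrays, 1 array per sample. The deposited scanner files give intensity per spot from Feature Extraction 10.5.1.1, background-subtracted and detrended within the array, per the file headers. They also hold mean and background intensities, used for the normexp background correction, and yes-or-no marks. The authors' deposited value table holds log2 values of unstated normalisation and served as an alternative; the submitters' processing notes name R 2.8.1.

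Log2 processed signals were averaged per probe without outlier spots and scaled by the array's 75th percentile. Names came from RefSeq (GRCm38.p6) by accession, symbol or synonym, or stayed as in the files. Genes well above background on at least 4 of 12 arrays were tested in limma 3.58.1 (R 4.3.3), with a 24 h cosine wave, a 1-way fit over times and the 3 steps within a slide. Benjamini-Hochberg adjustment ran over all genes tested; the threshold was 0.05. The fits were tested on simulated data. Alternatives covered background correction, scaling, the authors' table, the filter, the probe choice, slide, replicate number, the variance prior and each array left out. The number of arrays limits the precision. Members, marker lists and further lists were chosen with earlier results of these data known. Every member is named, as are the 2 genes of highest amplitude in each further list, except 1 that is not reported here.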

Additional observations from a re-analysis of the deposited data

How the results depend on the processing

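Of 759 values of single genes under 23 other settings, 738 kept their side of the threshold, 0 reversed, 17 lost the Dag1 call and 4 gained a Smtnl2 call. Genes with a 24 h wave numbered 2 of the 33 with normexp background correction, the authors' value table or an intensity trend in the variance prior (Dag1 and Smtnl2). They numbered 0 with median scaling, no filter on dim probes, the mean of all probes of a name, slide as a fixed or a random block, or the replicate block, and 0 to 1 with 1 array left out. Over all genes the 117 waves rose to 160 with normexp, 169 with the authors' table and 174 with the filter on all arrays. They fell to 62 with median scaling, 50 with no filter, and 7 and 33 with slide as a fixed or a random block. With 1 array left out they numbered 42 to 119. The 18 genes that differed between any times became 52 with normexp, 47 with the authors' table, 33 with the filter on all arrays, 48 with the intensity trend, 2 and 7 with slide as a fixed or a random block, and 7 to 120 with 1 array left out. The members' median amplitude was 0.218 with slide as a fixed block and 0.0792 to 0.122 with 1 array left out. The members' median difference of CT4 from CT0 ran from -0.34 to -0.04 (log2) with 1 array left out, against -0.23 with all arrays. The cause of these changes was not tested, other than that fewer or more genes enter the adjustment when the filter changes.

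Deviations of arrays with the same replicate number correlated at r = -0.20 to 0.44 over 15 pairs of times (median 0.17). Not every pair exceeded 0.1 and the labels tie no numbers together, so the arrays were treated as unpaired. Some genes did keep 1 sign by number: Smtnl2 was higher on replicate 1 at all 6 times, and urothelial markers were lower there in 11 to 13 of 13 from CT8 to CT20. With the replicate block the waves over all genes numbered 99 and the Dag1 adjusted p was 0.0511. With 2 arrays a time, a wave of small fold on a variable probe was not detectable at this precision.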
